A study of Rattus norvegicus with 8 samples.

Results

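The myosin heavy and light chain genes of rat muscle comprised Myh7, Myl3 and Myl2 of slow fibres, Myh2, Myh1, Myh4, Myl1 and Mylpf of fast fibres, and the developmental Myh3 and Myh8. Members were all probe sets whose only symbol in the array annotation was one of these 10 genes, which gave 16 of 31042 probe sets and 10 of 14217 named genes. The annotation lists Mylpf under its newer symbol Myl11, and it was matched through its gene ID. A further 3 probe sets carry a myosin symbol together with others and were left out. Myh1 had 5 probe sets and Myh7 and Myl2 had 2 each, numbered here from the highest to the lowest level. The muscle was the epitrochlearis of the forelimb, profiled on Affymetrix 3' arrays with 1 rat per array. The question of the study was whether a meal with whey protein hydrolysate, which is whey cut into peptides, leaves a different expression profile from a meal with free amino acids. Rats received carbohydrate with whey protein hydrolysate (WPH, n = 4) or carbohydrate with an amino acid mixture (AAM, n = 4). Both groups were male Sprague-Dawley rats, 6 weeks old, that practised swimming for 3 days, ate 5 g of a restricted diet the day before and swam for 2 h. Each then took a meal of 44 kJ by gavage, about 15% of the daily energy need. No unfed or unexercised group was analysed here, and how long after it the muscle was taken is not stated in the sources used here.

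Myosin is the motor of the sarcomere. Its heavy chains split ATP and pull on actin, and its light chains stiffen and tune the lever arm. The heavy chain isoform sets how fast a fibre shortens, so the mix of isoforms is used to type fibres. Slow fibres carry Myh7 with the light chains Myl3 and Myl2. Fast fibres carry Myh2 (type IIa), Myh1 (IIx) or Myh4 (IIb) with Myl1 and Mylpf. Myh3 and Myh8 are the embryonic and perinatal heavy chains, which fall after birth and return in regenerating fibres. In the GRCr8 gene order, Myh3, Myh2, Myh1, Myh4 and Myh8 are consecutive protein-coding genes on chromosome 10, whereas Myh7 lies on chromosome 15.

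The array levels below do not stand in for fibre counts, since in a piece of muscle fewer fibres of a type and less RNA per fibre cannot be told apart. The 10 general skeletal muscle markers had mean levels between 9.82 and 14.24, and the 6 cardiac markers lay between 6.13 and 6.57, with 0 above the array median of 6.66. The deposited values are on a log2-like scale, but they hardly differ between arrays: the median over probe sets of the SD between arrays was 3.69e-06, and the 99th percentile was 0.00191. A difference on this scale was therefore not read as a fold change. Each size is a standardized difference, WPH minus AAM over the pooled SD within groups, with a 95% interval. Values per array are deviations from the probe set's mean over all arrays.

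The promoters shown here belong to both pairs of genes whose levels were most closely related over the arrays, Myh7 with Myl3 and Myh1 with Myh4. They are the 250 bases before the RefSeq start on GRCr8, 5′ to 3′ on the gene's strand. Capitals mark matches, on either strand, to the E-box CANNTG bound by Myod1 and its relatives, the MEF2 site, the MCAT motif CATTCC bound by Tead factors, TATAAA and the CArG box bound by serum response factor. The Myh7 window is chr15:32438195-32438444 on the minus strand, Myl3 is chr8:119616844-119617093, Myh1 is chr10:52384662-52384911 and Myh4 is chr10:52421898-52422147, these 3 on the plus strand.
Myh7: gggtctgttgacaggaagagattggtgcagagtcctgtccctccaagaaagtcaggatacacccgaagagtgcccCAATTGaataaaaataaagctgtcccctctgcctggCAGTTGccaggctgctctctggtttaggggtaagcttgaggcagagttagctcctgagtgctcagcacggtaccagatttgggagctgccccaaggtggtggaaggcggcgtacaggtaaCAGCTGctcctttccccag
Myl3: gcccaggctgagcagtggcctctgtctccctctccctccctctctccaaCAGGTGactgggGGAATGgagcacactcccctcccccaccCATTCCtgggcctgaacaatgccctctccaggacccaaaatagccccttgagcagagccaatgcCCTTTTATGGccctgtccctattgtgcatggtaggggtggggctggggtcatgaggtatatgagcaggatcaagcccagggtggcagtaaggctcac
Myh1: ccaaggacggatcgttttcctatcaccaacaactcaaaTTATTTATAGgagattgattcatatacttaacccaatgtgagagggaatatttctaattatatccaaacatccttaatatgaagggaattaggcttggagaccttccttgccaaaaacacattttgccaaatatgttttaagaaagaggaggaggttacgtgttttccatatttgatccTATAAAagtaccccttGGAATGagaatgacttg
Myh4: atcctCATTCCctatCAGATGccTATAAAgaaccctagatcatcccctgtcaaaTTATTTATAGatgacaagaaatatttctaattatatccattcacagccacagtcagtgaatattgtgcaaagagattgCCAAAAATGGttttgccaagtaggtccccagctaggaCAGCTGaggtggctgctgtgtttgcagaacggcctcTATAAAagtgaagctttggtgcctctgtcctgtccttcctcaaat
The Myh7 window held 3 E-boxes and no other motif searched, and whether its RefSeq start is the one used in muscle was not tested. The Myl3 window held 1 E-box, 2 MCAT motifs and 1 CArG box. The Myh1 window held 1 MEF2 site, 1 MCAT motif and 2 TATAAA, and the Myh4 window held 2 E-boxes, 1 MEF2 site, 1 MCAT motif, 3 TATAAA and 1 CArG box. In both, 1 TATAAA match overlaps the MEF2 site. Of 33469 promoter windows of this length, 65.5% held an E-box, 12.1% an MCAT motif, 12.9% TATAAA, 2.96% a MEF2 site and 1.5% a CArG box. These matches are letters in a window and were not tested for binding.

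Fast and slow myosins lay near the top of the arrays, and the developmental ones near the middle. Myl1 and Mylpf, the essential and regulatory light chains of fast fibres, had mean levels of 14.19 and 14.11, at the 99.99th and 99.98th percentiles of all probe sets. Myh4 had 13.69 and Myh2 had 13.62, at the 99.94th and 99.92nd percentiles. The 5 Myh1 probe sets had 11.33, 11.28, 11.01, 10.65 and 9.24. Among the slow genes the brighter probe sets of Myh7 and Myl2 had 11.49 and 11.13 and Myl3 had 10.51, at the 98.72nd, 98.39th and 97.34th percentiles. The second Myh7 and Myl2 probe sets had 7.89 and 6.77. Myh8 had 6.97 and Myh3 had 6.93, at the 60.84th and 59.77th percentiles, and the range of Myh3 over the arrays, 6.911 to 6.975, took in that of Myh8, 6.965 to 6.967. Probe sets differ in how well they bind, as the probe sets of Myh1 and Myh7 show, so this order is not an order of transcript amounts.

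The spread between rats differed widely among the genes. Myh3 stood at the 99.85th percentile of all probe sets by SD over the arrays, Myh7 at the 99.57th and 99.71st for its probe sets 1 and 2, Myl3 at the 99.11th, Myl2 probe set 1 at the 98.52nd and Myh8 at the 97.59th. Among the fast heavy chains, the 5 Myh1 probe sets stood between the 80.02nd and 97.25th percentiles, Myh4 at the 68.26th and Myh2 at the 28.03rd. Myl1 and Mylpf stood at the 0.016th and 0.032nd percentiles, with ranges of 5e-08 and 7e-08. Those ranges span a few steps of the last deposited decimal, 1e-08, so relations of Myl1 or Mylpf with another gene rest on those steps, and they are given only within counts, ranges and medians over pairs and among the alternative settings.

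None of the 10 myosin genes differed past the threshold between WPH and AAM rats. By limma with Benjamini-Hochberg adjustment over all probe sets, 0 of 16 myosin probe sets passed 0.05, where 0 of 31042 probe sets (0%) passed. For Myl1 and Mylpf this test could decide little, since limma borrows variance from all probe sets and their own SDs are 1.69e-08 and 2.45e-08. Their unadjusted limma p were 0.97 and 0.976, beside exact permutation p of 0.429 and 0.743. At an unadjusted p below 0.05 the count was 0 of 16, beside 1110 of 31042 (3.58%), and 0 of 16 had arrays that did not overlap between the meals, beside 693 (2.23%). WPH was higher in 9 of the 16 and lower in 7, with a median standardized difference of 0.155, and over all probe sets 14679 were higher and 16363 lower, with a median of -0.044. The median was -0.46 over the 5 slow probe sets, 0.22 over the 9 fast probe sets and 0.62 over the 2 developmental ones. With 4 rats a group the intervals are wide, and each of the 16 takes in 0.

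**Figure D1:**
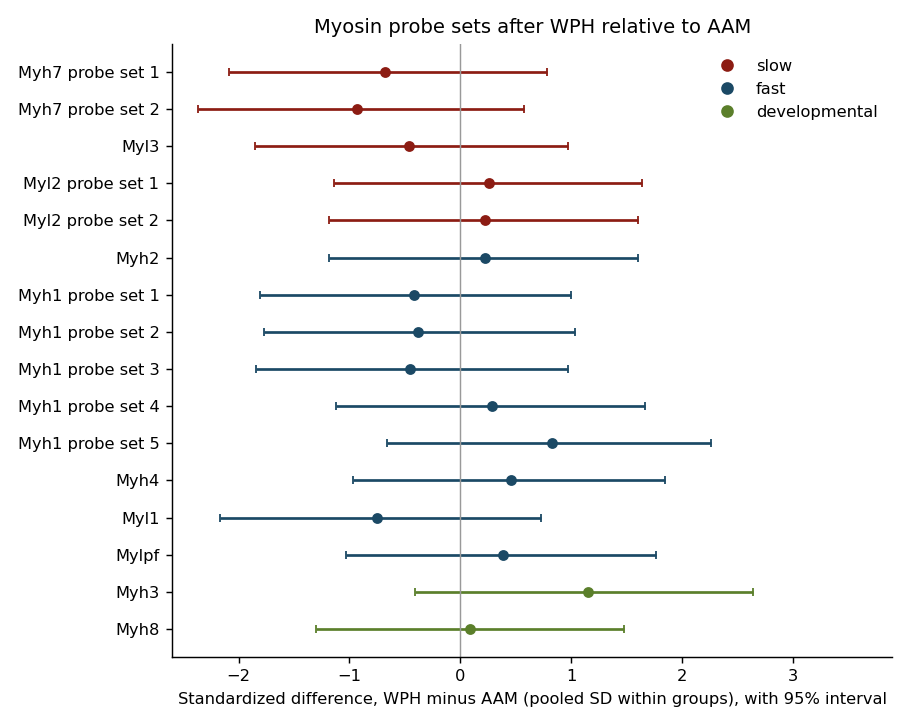
Standardized difference (WPH minus AAM over the pooled SD within groups) of the 16 myosin probe sets, points with 95% intervals, coloured by slow, fast and developmental class. All 16 intervals cross 0, from Myh7 probe set 2 at -0.93 to Myh3 at 1.15.

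Myh7, the heavy chain of slow fibres, split the WPH rats. Its brighter probe set deviated by 4.40, 5.42, -9.96 and -8.92 in WPH rats 1 to 4, against 3.00, -3.17, 1.96 and 7.26 in AAM rats 1 to 4, in units of 0.001 on the log2 scale. WPH rats 3 and 4 were the lowest of all 8, and WPH rats 1 and 2 lay within the AAM range. WPH rats averaged -2.26 ± 8.30 and AAM rats 2.26 ± 4.29 (SD over 4 rats each). The standardized difference was -0.68 (95% interval -2.09 to 0.78, exact permutation p = 0.343, limma adjusted p = 1). The second probe set read 1.37, 1.47, -11.99 and -8.96 after WPH, against 5.04, -8.61, 1.57 and 20.1 after AAM, with a standardized difference of -0.93 (-2.37 to 0.58). Again WPH rats 3 and 4 were lowest, here close to AAM rat 2. The probe sets of Myh7 were correlated over the 8 arrays, with a Pearson r of 0.86 (exact permutation p = 0.00211, adjusted 0.00633 over the 12 pairs of probe sets of the same gene; Spearman rho 0.81, exact p = 0.0218).

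Myl3, the essential light chain that works with Myh7, followed the same rats. It deviated by 1.45, 2.26, -2.80 and -3.07 after WPH, against -0.701, -1.01, 0.873 and 3.00 after AAM, in units of 0.001. WPH rats 3 and 4 were again the lowest and AAM rat 4 the highest. The standardized difference was -0.46 (-1.85 to 0.97, exact permutation p = 0.514, limma adjusted p = 1). Myl2, the regulatory light chain of slow fibres, deviated at its brighter probe set by 2.06, 0.867, -1.41 and -0.884 after WPH, against -0.430, -0.444, -0.494 and 0.741 after AAM. The WPH rats thus lay on both sides of the AAM range, and the standardized difference was 0.26 (-1.14 to 1.64, exact permutation p = 0.8, limma adjusted p = 1). The dim second probe set of Myl2 varied by units of 1e-06 and was only loosely related to the first (r = 0.39, exact permutation p = 0.348, adjusted 0.38; rho 0.26).

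Of the fast heavy chains, Myh4 deviated by 5.65, 4.20, -2.92 and 1.28 after WPH, against 10.7, -4.98, -17.2 and 3.26 after AAM, in units of 1e-06. AAM rats 1 and 3 were the highest and lowest of the 8, and all WPH rats lay between them. The standardized difference was 0.46 (-0.97 to 1.85, exact permutation p = 0.571, limma adjusted p = 1). Myh1 at its brightest probe set deviated by -0.102, -0.297, -0.00855 and 0.0856 after WPH, against -0.537, 0.280, 0.671 and -0.0921 after AAM, in units of 0.001. Here AAM rat 1 was the lowest and AAM rat 3 the highest, the reverse of Myh4, and the standardized difference was -0.42 (-1.81 to 1.0). Myh2 deviated by 2.22, -0.917, -1.82 and 1.28 after WPH, against -2.48, 0.772, 0.0525 and 0.882 after AAM, in units of 1e-06, with a standardized difference of 0.22 (-1.18 to 1.6). The direction of Myh4, Myh2 and Mylpf turned when each array was centred on its median.

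The 5 Myh1 probe sets did not report the same thing. Probe sets 1 and 3, which were designed from the same sequence entry, were correlated at 1.0, and probe set 2 was correlated with them at 0.94 and 0.96 (exact permutation, adjusted p = 0.000298, 0.00633 and 0.00633 over the 12 pairs). By rank, probe set 2 had rho = 0.69 with each of probe sets 1 and 3 (exact permutation p = 0.0694, unadjusted). Probe set 4, which shares its sequence entry with probe set 2, had r = 0.44, 0.70 and 0.50 with probe sets 1, 2 and 3 (adjusted p = 0.337, 0.0715 and 0.289, exact permutation). Probe set 5 ran against the brighter ones, at -0.73, -0.54 and -0.72 (adjusted p = 0.0715, 0.255 and 0.0715, exact permutation). It deviated by 0.495, 0.314, 0.282 and -0.435 after WPH, against 0.0808, -0.275, -0.655 and 0.193 after AAM, in units of 0.001. Its standardized difference of 0.83 (-0.66 to 2.26, exact permutation p = 0.257) thus has the opposite sign to those of probe sets 1, 2 and 3, which were -0.42, -0.38 and -0.45. The neighbouring genes of the chromosome 10 cluster are close in sequence, and how far each probe set tells them apart was not tested.

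Among the developmental heavy chains, Myh3 varied most. It deviated by 43.3, 5.87, -17.6 and 14.7 after WPH, against -13.8, 7.63, -19.8 and -20.3 after AAM, in units of 0.001. WPH rats 1 and 4 lay above every AAM rat, while WPH rat 3 lay with the low AAM rats. The standardized difference was 1.15 (-0.41 to 2.64, limma adjusted p = 1, exact permutation p = 0.143, where the smallest possible is 0.0286). Myh8 deviated by 0.227, 0.494, -0.00656 and -0.598 after WPH, against 0.312, 0.840, -0.468 and -0.800 after AAM, with a standardized difference of 0.09 (-1.30 to 1.48). The 11 genes of regenerating fibres, 9 of them measured, gave 0 calls, with 7 higher and 2 lower after WPH and a median of 0.37. Myog and Myod1, both myogenic transcription factors, had standardized differences of 0.37 (-1.05 to 1.75) and 1.13 (-0.42 to 2.62).

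**Figure D2:**
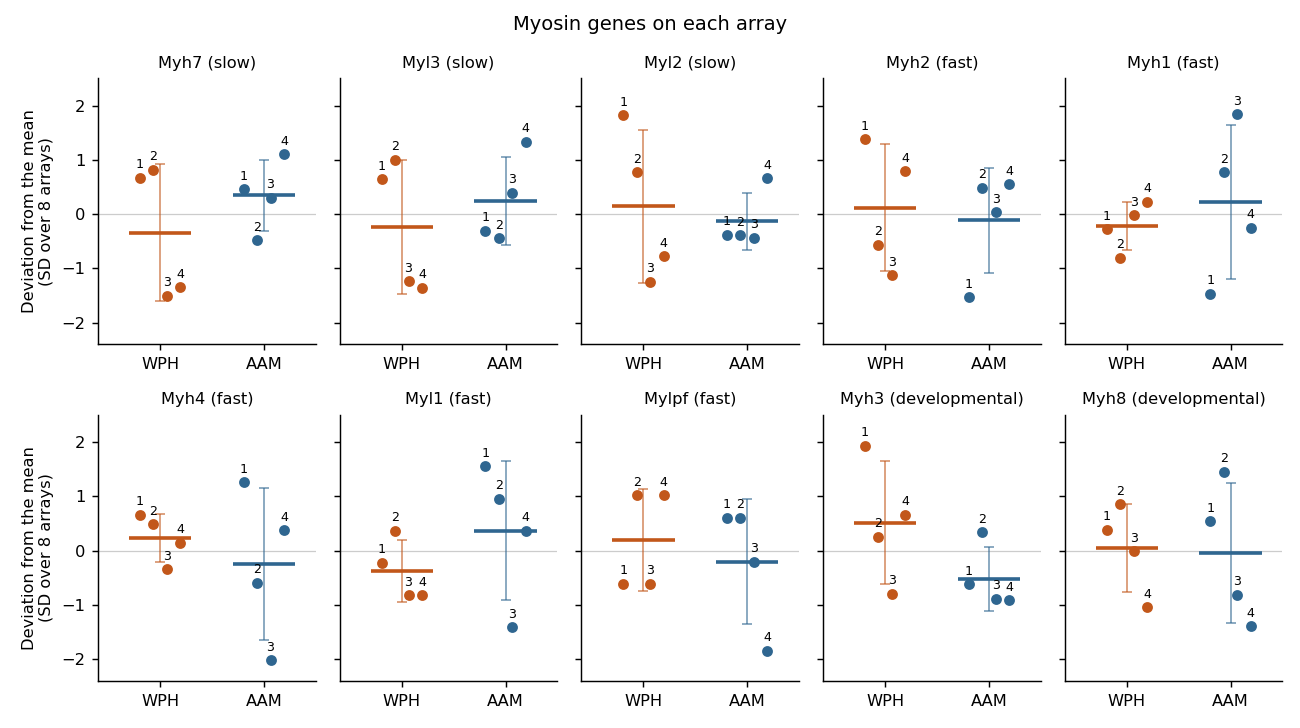
Deviation of each myosin gene from its mean, in SDs over the 8 arrays, for WPH and AAM rats (points numbered by rat, thick lines group means, bars 1 SD, probe set of highest level per gene). Myh7 and Myl3 share their low WPH rats 3 and 4, and Myh1 and Myh4 have AAM rats 1 and 3 at opposite ends.

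Co-variation over the 8 rats was tested for all 45 pairs of the 10 genes, each by its brightest probe set. Only 2 pairs passed Benjamini-Hochberg adjustment over the 45, and 4 had an unadjusted exact p below 0.05. Myh7 and Myl3 went together, with Pearson r = 0.95 (exact permutation p = 0.000298, adjusted 0.0123) and Spearman rho = 0.95 (p = 0.00114, adjusted 0.0257). Without WPH rats 3 and 4, the 2 arrays farthest from the median of Myh7, r was 0.86. After each meal's mean was removed it was 0.95 (exact permutation within meals p = 0.033, adjusted 0.456). With any 1 rat left out r lay between 0.92 and 0.99, and its adjusted p, between 0.0179 and 0.0982, missed 0.05 without WPH rat 1 or 2 or AAM rat 2, 3 or 4. The second Myh7 probe set had r = 0.82 with Myl3.

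The pairs of Myl2 with the other slow genes did not pass. Its r was 0.77 with Myh7 (exact permutation p = 0.0211, adjusted 0.237; rho 0.88, p = 0.00724, adjusted 0.109) and 0.79 with Myl3 (p = 0.0209, adjusted 0.237; rho 0.81, p = 0.0218, adjusted 0.245). After each meal's mean was removed the values were 0.90 (exact permutation within meals p = 0.0608, adjusted 0.456) and 0.87 (p = 0.0434, adjusted 0.456). With any 1 rat left out they lay between 0.68 and 0.88 and between 0.72 and 0.92. Without WPH rats 3 and 4 the r of Myl2 with Myh7 was 0.60, and without AAM rat 4 and WPH rat 4 that of Myl2 with Myl3 was 0.80. The median r was 0.79 over the 3 slow pairs, beside 0.11 over all 45, 0.11 over the 15 pairs of a slow with a fast gene and 0.02 over the 6 pairs of a slow with a developmental gene.

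The fast genes had a median r of -0.12 over their 10 pairs, with a range from -0.95 to 0.66. The upper end is Myh4 with Myl1, 1 of the 7 fast pairs that involve Myl1 or Mylpf. Myh1 and Myh4, the IIx and IIb heavy chains, ran against each other with r = -0.95 (exact permutation p = 0.000546, adjusted 0.0123) and rho = -0.95 (p = 0.00114, adjusted 0.0257). Without AAM rats 1 and 3, the farthest from the median of Myh1, r was -0.79. After each meal's mean was removed it was -0.95 (exact permutation within meals p = 0.0208, adjusted 0.456). With any 1 rat left out r lay between -0.96 and -0.90, and the adjusted p, between 0.0268 and 0.214, missed 0.05 without WPH rat 2 or any of the 4 AAM rats. Centring each array on its median left r = -0.35 (adjusted p = 0.863).

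The relation of Myh1 with Myh4 also depended on the Myh1 probe set. Probe sets 1 to 5 had r = -0.95, -0.93, -0.97, -0.52 and 0.70 with Myh4, so the dimmest has the opposite sign. Of 4 whole-array measures, 2 moved with this pair. Scores of the first principal component of all probe sets had r = 0.84 with Myh1 and -0.83 with Myh4, against -0.50 with Myh7, and they were highest in AAM rat 3 (0.65) and lowest in AAM rat 1 (-0.46). The 3' minus 5' difference of Gapdh, a sign of RNA integrity, had r = 0.66 with Myh1 and -0.64 with Myh4, though it spans only 9.2e-07 over the arrays. That of Actb had r = 0.25 with Myh1 and -0.35 with Myh4, and the array median had 0.08 and -0.14. The part of these measures in the relation was not tested. Myh2, the IIa heavy chain, passed the threshold with neither, with r = 0.41 with Myh1 (exact permutation p = 0.323, adjusted 0.923) and -0.13 with Myh4 (p = 0.767, adjusted 0.947). After median centring the pair of Myh2 with Myh4 turned positive and passed. Myh3 and Myh8 had r = 0.35 (p = 0.399, adjusted 0.923).

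**Figure D3:**
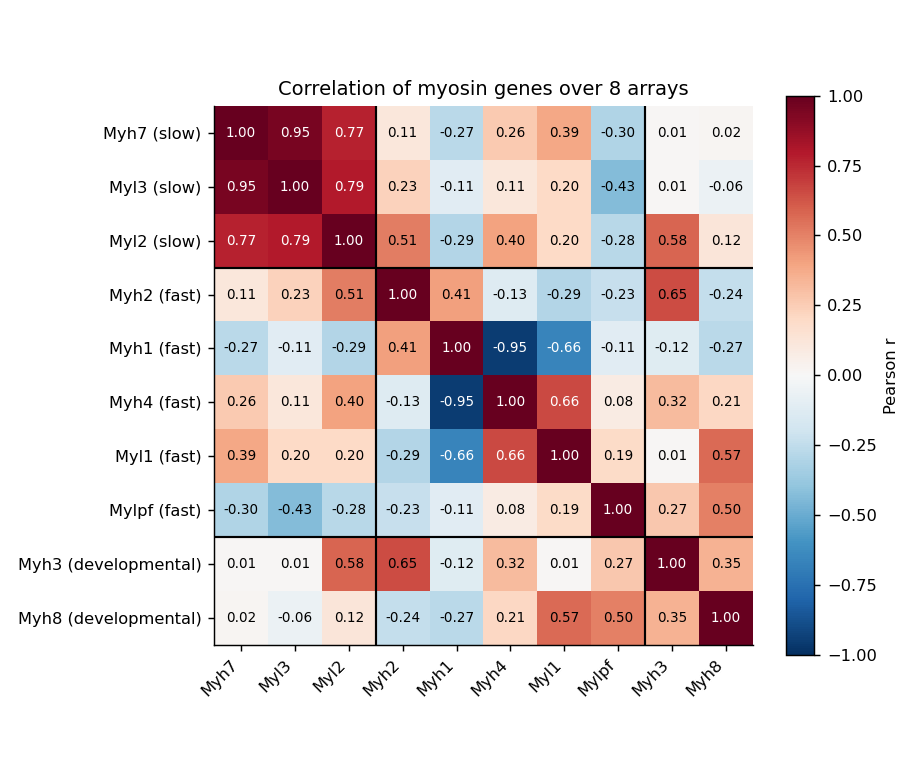
Pearson r over the 8 arrays for all pairs of the 10 myosin genes, ordered slow, fast and developmental, with black lines between classes. The slow block holds 0.77, 0.79 and 0.95, whereas the fast block runs from -0.95 (Myh1 with Myh4) to 0.66.

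**Figure D4:**
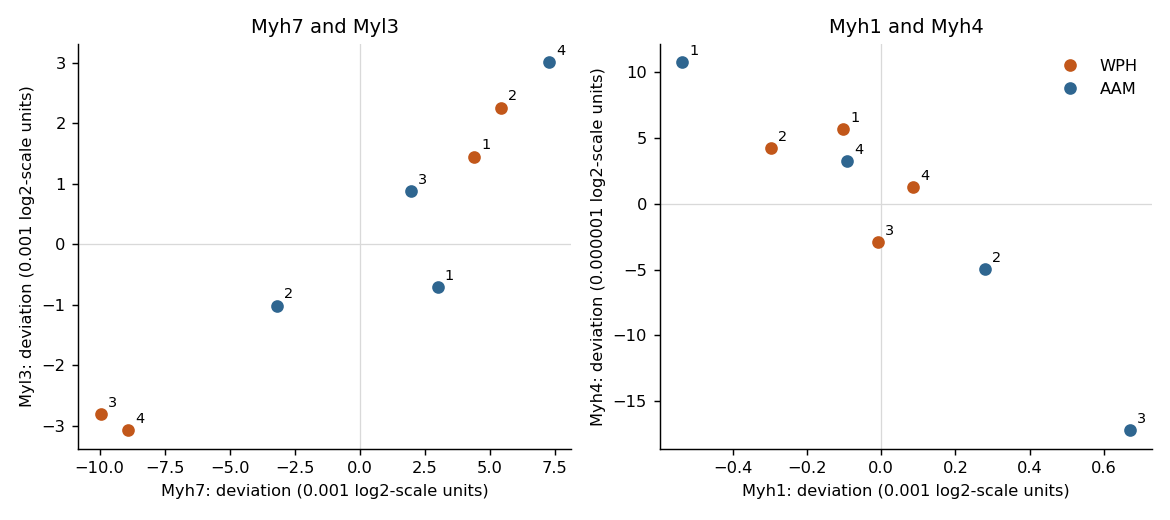
Deviations on each array, numbered by rat, for Myl3 against Myh7 and for Myh4 against Myh1, with WPH and AAM rats in separate colours and the log2-scale unit on each axis. Myl3 rises with Myh7 (r = 0.95), with WPH rats 3 and 4 at the low end, and Myh4 falls with Myh1 (r = -0.95) between AAM rats 1 and 3.

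Set against other genes, Myh7 stood with the slow fibre programme. Correlations here are descriptions over the same 8 arrays, among 9373 genes with a mean level above the array median, which share RNA sample and hybridization. Tnnt1, the slow troponin T, was the closest of all (r = 0.981), followed by Pms2, a mismatch repair protein (0.979), and Tnnc1, the slow troponin C (0.974). Myl3 came 8th and Myl2 133rd, and from the side of Myl3, Myh7 came 7th. Of the 10 slow fibre markers 5 had r above 0.7, a value that 310 of the 9373 genes (3.31%) passed. These were Tnnt1, Tnnc1 (0.97), Tpm3, the slow alpha-tropomyosin (0.97), Atp2a2, the slow calcium pump (0.96), and Tnni1, the slow troponin I (0.93). The other 5, Myoz2, Fhl1, Mb, Casq2 and Csrp3, lay between -0.42 and 0.41, so the median of the list was 0.67, beside 0.05 over all genes. With Myl3, 5 of these 10 markers passed 0.7 (2.13% of genes), and with Myl2, 6 (3.12%).

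As deposited, the fast fibre markers ran the other way from Myh7. All 10 had a negative r with it, with a median of -0.66, and 4 lay below -0.7, which 294 genes (3.14%) did. Among the 10, Tnnc2 spans 4e-08 over the arrays and Tnnt3 1.9e-07, so their r of -0.60 and -0.65 rest on few steps of the last decimal. Atp2a1, Mybpc2, Tnni2, Actn3, Myoz1 and Casq1 span from 2e-06 to 3.29e-05, less than the 6.67e-05 span of the array medians. The remaining markers, Pvalb and Mylk2, span more, 0.00121 and 0.000146, and had weaker r of -0.42 and -0.18. All 4 markers below -0.7 are among those that span less. The r of listed markers are of the values as deposited and were not tested after median centring. The lowest r were those of Casq1, the calcium store protein of fast fibres (-0.86), and Mybpc2, the fast myosin-binding protein C (-0.76). The fast heavy chains lay nearer to 0: Myh2, Myh1 and Myh4 had r = 0.11, -0.27 and 0.26 with Myh7. General skeletal muscle, fibroblast and nerve markers ran with negative r too. Of the general muscle markers 8 of 10 were negative (median -0.59, 4 below -0.7), though Acta1 and Ckm in this list span only 1e-08 and 1e-07. All 6 fibroblast markers were negative (median -0.64, 2 below -0.7), as were all 3 nerve markers above the array median (median -0.71, 2 below -0.7). Summed levels of the 6 fibroblast markers lay between 66.56 and 66.59 after WPH and between 66.54 and 66.59 after AAM, with none of the 6 below the array median. The 4 measured nerve markers summed to 30.59 on every array. The widest of them, Mbp, spans only 0.00116, so a sum to 2 decimals could hardly show a difference. The medians of the other cell lists were -0.43 for the 2 adipocyte and the 3 erythrocyte markers above the array median, -0.36 for 5 leukocyte, -0.17 for 5 smooth muscle and -0.09 for 4 endothelium markers. The part of these genes in the course of Myh7 was not tested.

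**Figure D5:**
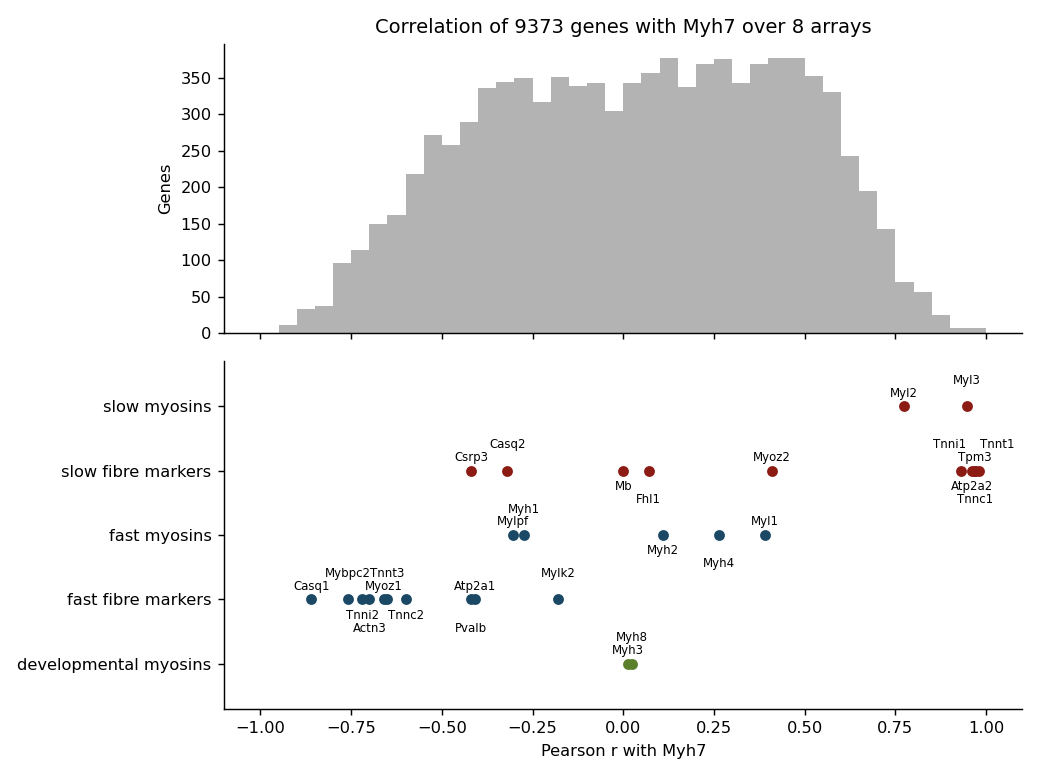
Top, number of genes by Pearson r with Myh7 over the 8 arrays for 9373 genes. Bottom, r with Myh7 of the other myosins and of the slow and fast fibre markers: 5 slow markers lie at 0.93 or above, and all 10 fast markers lie below 0.

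None of the other 5 heavy chains had a listed fibre marker among its 3 nearest genes. Myh1 was closest to Mrpl42, of the mitochondrial ribosome (r = 0.975), Dynlt3, a dynein light chain (0.973), and Ndufb9, of respiratory complex I (0.971), and 10.2% of genes had r above 0.7 with it. Myh4 was closest to Brd1, a chromatin reader (0.987), Gmcl1 (0.977) and Kif16b, a kinesin (0.973), and 14.7% of genes passed 0.7. Both shares are above the 3.31% of Myh7. Myh4 was the 7th from the bottom for Myh1, and Myh1 the 36th from the bottom for Myh4. Myh2 was closest to Pomgnt1, which builds the sugar chain of dystroglycan (0.962), Hnrnpll, a splicing factor (0.960), and Adgrg3, an adhesion receptor (0.951), and 1.47% passed 0.7. Myh3 was closest to Mtfr1l (0.921), Hspa1a, the inducible heat shock protein (0.895), and Chst2, a sulfotransferase (0.890), with 1.24% past 0.7. Myh8 was closest to Msmo1, of sterol synthesis (0.939), Nsa2, of ribosome assembly (0.924), and Cpne5 (0.923), with 2.21% past 0.7.

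The other genes of the myosin apparatus were compared between the meals by list, and 0 genes of any list passed (limma, smallest adjusted p 0.9998). All 10 fast fibre markers were higher after WPH as deposited, with a median standardized difference of 0.74 beside -0.044 over all probe sets. The direction of Tnnc2 rests on a few steps of the last decimal. Centring arrays on their medians, which moved the median of all probe sets to -0.515, turned Tnnt3, Tnni2, Tnnc2 and Atp2a1 to between -0.52 and -0.47, close to that common shift. Of these 10, Mylk2, the kinase of the fast regulatory light chain, had a standardized difference of 1.99 (exact permutation p = 0.0286, unadjusted limma p = 0.0235), and its WPH and AAM arrays did not overlap. Over all probe sets, 3.58% had an unadjusted limma p below 0.05 and 2.23% did not overlap. WPH rat 4, with a low Myh7, had the highest mean z-score of the fast fibre list, 1.59. It was also highest for the general skeletal muscle (1.09), fibroblast (1.38), smooth muscle (0.65) and leukocyte (0.79) lists. WPH rat 3, the lowest in Myh7, had 0.68 for the fast fibre list. Of the 10 slow fibre markers 5 were higher and 5 lower, with a median of -0.01. Tnnt1, Tnni1, Tnnc1, Atp2a2 and Tpm3 lay between -0.62 and -0.22, and Csrp3, Casq2, Myoz2, Fhl1 and Mb between 0.20 and 1.15. Of the 11 measured thick filament partners 9 were higher and 2 lower (median 0.54), Ttn, the giant spring of the sarcomere, at 1.35 (-0.27 to 2.88) and Mybpc1, the slow myosin-binding protein C, at 0.72 (-0.75 to 2.13). Ttn and Mybpc1 span 2.41e-06 and 2.62e-06 over the arrays, less than the 6.67e-05 span of the array medians. Their direction after median centring was not examined. Of 11 other myosin chains 5 were higher and 6 lower (median -0.06), Myh9 and Myh6 at -0.26 and -0.96.

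Among 22 measured regulators of fibre type 13 were higher and 9 lower after WPH, with a median of 0.16. Six4, a factor of the fast programme, had a standardized difference of 0.88 (-0.62 to 2.32) and Eya1, its cofactor, -0.23 (-1.61 to 1.17). Over the arrays 0 of the 22 passed 0.7 in either direction with Myh7, and their median r was -0.03. With Myh4, 3 passed 0.7, beside 14.7% of all genes, and 0 lay below -0.7, beside 10.5%. With Myh1, 1 passed 0.7, beside 10.2%, and 3 lay below -0.7, beside 14.7%.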

How the data were processed

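The authors deposited 1 value per probe set and array on a log2-like scale. The submitters' processing notes name R 2.7.2. The method of background correction, normalization and centring was not given in the sources used here. Groups came from the treatment labels, which call the rats biological replicates and name no batch or barrel. No 2 arrays held the same values. Of 31099 probe sets, 57 controls were left out. The annotation gives 1 symbol to 20826 of the rest, several to 436 and none to 9780. WPH was compared with AAM with limma 3.58.1 under R 4.3.3 (two-sided moderated test, Benjamini-Hochberg, 0.05). Exact two-sided permutation tests ran over 35 splits for differences and 40320 pairings for correlations. Intervals use a noncentral t with 6 degrees of freedom, and the number of arrays limits precision. Both procedures were tested on simulated data. Lists were described by counts and medians. Named by rule were all members, the first 4 measured genes of each slow and fast fibre list and 2 of each other list, any past the threshold, and the 3 genes nearest each heavy chain. Tpm3, Pvalb, Mybpc2, Actn3, Casq1, Myoz1, Mylk2, Cacna1s, Runx1 and the slow markers below 0.7 were named after their values were seen. The members and the 15 lists were chosen with earlier results of these data known.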

Additional observations from a re-analysis of the deposited data

Results flagged for a closer look

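Dixon's test at 95% was run on 48 sets of 4 arrays, of which chance alone would mark about 2.4, and it marked 2. At Myl2 probe set 1, AAM rat 4 stood above the other AAM rats, with a gap of 0.948 of the group's range: it deviated by 0.741, against -0.430, -0.444 and -0.494 in AAM rats 1 to 3, in units of 0.001 on the log2 scale. At Myh1 probe set 4, WPH rat 4 stood below the other WPH rats, with a gap of 0.872 of the range: it deviated by -26.9, against 14.01, 15.1 and 9.74 in WPH rats 1 to 3, in units of 1e-06.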

How the results depend on the processing

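The count of calls between the meals stayed at 0 over all probe sets, over the myosins and over the list genes, under every alternative and at a threshold of 0.1. The count of myosin pairs past the threshold, 2 as reported, was 0 after quantile normalization (10 pairs could be tested, since the probe sets used for the 5 fast genes became constant), 7 after median centring, 0 within meals, 1 with the probe set of largest SD per gene and from 0 to 2 with 1 rat left out. The 7 were Myh7 with Myl3 and the pairs among Myh2, Myh4, Myl1 and Mylpf. Those fast genes range over less than the subtracted array medians do, so their pairs are not read as co-variation of myosins. With the replicate block the count was 0, where the smallest possible p is 0.125. Same-numbered rats had correlations of 0.167, 0.139, 0.067 and -0.078, so the numbers were not taken as pairs. Under the block the r of Myh7 with Myl3 was 0.98 and of Myh1 with Myh4 -0.98, while Myl1 with Mylpf turned to -0.23 and Myh7 with Myh4 to -0.17.

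Median centring moved the median standardized difference of all probe sets to -0.515, from -0.044 as deposited. The array medians span 6.67e-05, more than the ranges of Myh2, Myh4, Myl1 and Mylpf. It turned Myl2 probe set 2 to -0.37, Myh2 to -0.51, Myh1 probe set 4 to -0.19, Myh4 to -0.29, Mylpf to -0.52, Tnnt3 to -0.52, Tnni2 to -0.47, Tnnc2 to -0.52 and Atp2a1 to -0.50, and it turned the r of Myh2 with Myh4 to 0.93 and of Myh7 with Myh4 to -0.17. Quantile normalization turned Myh1 probe set 4 to -0.46 and Myh8 to -0.03, and gave r = 0.91 for Myh7 with Myl3 (adjusted p = 0.119, exact permutation). The cause of these shifts was not tested.

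With 1 rat left out, the standardized difference changed sign for Myl2 probe set 1 (-0.36 to 0.80), Myl2 probe set 2 (-0.40 to 0.59), Myh2 (-0.25 to 0.67), Myh1 probe sets 1 (-1.35 to 0.12), 2 (-1.37 to 0.19), 3 (-1.39 to 0.09) and 4 (-0.09 to 0.96), Myh4 (-0.17 to 1.17), Mylpf (-0.17 to 0.63), Myh8 (-0.36 to 0.68), Tnni1 (-0.61 to 0.22) and Tnnc2 (-0.46 to 0.79), and so did the r of Myh2 with Myh4 (-0.35 to 0.27). Myh7, Myl3, Myl1, Myh3 and Myh1 probe set 5 kept their direction in these fits.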

Other observations

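Across these 8 rats the heavy chain Myh14, a non-muscle myosin, had r = 0.86 with Myh7, the 33rd highest of 9373 genes, and Myl9, the light chain of smooth muscle, had -0.78. Nfatc1, a calcineurin-dependent factor of the slow programme, had r = -0.93 with Myh1 and 0.88 with Myh4. Of the 9373 genes, 14.7% lay below -0.7 with Myh1 and 14.7% above 0.7 with Myh4. Myh14, Myl9 and Nfatc1 were singled out after their values were seen and are given without a test. Runx1, which marks denervated and regenerating fibres, had a standardized difference of 2.97 (unadjusted limma p = 0.00386, exact permutation p = 0.0286, WPH and AAM arrays not overlapping), but its adjusted p did not pass. Over all probe sets, 3.58% had an unadjusted limma p below 0.05 and 2.23% did not overlap. Runx1 was singled out after its value was seen, from 9 measured genes of regenerating fibres, 7 higher and 2 lower with a median of 0.37.

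The markers of other cells gave 0 calls between the meals. Their directions are those of the values as deposited and were not examined after median centring. Among the general skeletal muscle markers only Cacna1s, with 0.000167, spans more over the arrays than the array medians do (6.67e-05). After WPH, general skeletal muscle markers were higher in 8 and lower in 2 of 10 (median standardized difference 0.90), smooth muscle higher in 2 and lower in 4 (-0.29), cardiac muscle 1 and 5 (-0.66), fibroblast 4 and 2 (0.14), endothelium 3 and 1 (0.33), adipocyte 1 and 4 (-0.45), erythrocyte 2 and 2 (0.0), nerve 3 and 1 (0.08) and leukocyte 4 and 2 (0.17). The standardized differences of the first 2 measured genes of each list were -0.14 for Ckm and -1.0 for Acta1, which span 1e-07 and 1e-08 over the arrays, 1.76 for Acta2 and -0.25 for Tagln, 0.85 for Nppa and -0.66 for Nppb, and 0.15 for Col1a1 and 0.13 for Col1a2. They were 0.34 for Pecam1 and -0.44 for Kdr, -0.48 for Adipoq and -0.45 for Plin1, -0.28 for Hbb and 0.03 for Alas2, 0.04 for Mbp and 0.11 for S100b, and 0.60 for Ptprc and 0.06 for Cd68.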
